A study of Homo sapiens with 9 samples.

Results

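FER, FES, PTK2, PTK2B, SRC, YES1, FYN, LYN, ABL1 and ABL2 are non-receptor tyrosine kinases of the FES, FAK, SRC and ABL families, and their transcripts were followed in NCI-H1155 cells, an established human lung cancer line with neuroendocrine features. The members were taken by gene symbol, and all 10 were found among the 23369 genes of the table. Cells plated 24 h earlier were exposed for 4 h to 1 µM foretinib or 1 µM cabozantinib, or were given DMSO, the solvent control, with 3 libraries in each of the 3 groups. All groups share the same unmodified line in serum-containing medium, so that the data describe 1 cell line. Nothing in the labels says whether the biological triplicates came from separate days, and p-values therefore measure only the spread between these libraries. Libraries are named by group and by the number in their title, which reads 2, 4 and 5 with DMSO, 3, 4 and 5 with cabozantinib and 1, 2 and 4 with foretinib.

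Non-receptor tyrosine kinases sit inside the cell and relay signals from integrins, cadherins, growth factor receptors and immune receptors to the actin cytoskeleton and to growth pathways. On integrin engagement, FAK (the product of PTK2) phosphorylates itself and recruits SRC, and the pair phosphorylates adaptors such as paxillin and p130Cas. ABL kinases act on actin regulators, and FER acts on cortactin and on catenins at cell contacts. Foretinib and cabozantinib are quinoline-based multi-kinase inhibitors that share a scaffold. Foretinib bears a morpholine-tipped propoxy chain where cabozantinib has a methoxy group, and an added fluorine. Such compounds bind kinase proteins, and the level of a kinase's mRNA does not measure that binding. The study asks how similar inhibitors come to differ in activity, and the values below answer only whether the transcripts of these kinases differed between the groups.

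Values are the authors' normalised reads, that is, read counts divided by 1 size factor per library. Gene-assigned reads per library ran from 26996023 to 34062153, with overlap between the groups. Of the 12642 genes tested (10 or more normalised reads in no fewer than 3 libraries), 16.3% to 21.02% were at 0 in the foretinib libraries, against 4.41% to 5.58% in all others except DMSO replicate 2, which had 10.9%. The foretinib libraries therefore stood apart from the rest in how many genes they detected. Neuroendocrine markers were all 10 detected and summed to 94203 to 99084 in DMSO, 96464 to 105370.0 in cabozantinib and 88684 to 96247 in foretinib. Of 6 epithelial markers 5 were tested, summing to 2981 to 7027, with KRT19 at 0 throughout. Most of that sum came from KRT8 and KRT18, with means of 1672 and 2922 over all libraries. EPCAM, CLDN4 and CDH1 had means of 201, 311 and 52.6 and fell to 0 in at least 1 library. Because several of the kinases are also abundant in blood cells, leukocyte markers were checked. Of these 10, 9 were listed at 0 in every library, among them PTPRC, CD3D, CD14 and SPI1, and the list summed to 0 to 71.3 in DMSO, 0 to 61.6 in cabozantinib and 0 to 9.04 in foretinib. Fibroblast markers summed to 453 to 1345 over all libraries with COL3A1, DCN and PDGFRB at 0, endothelial markers to 0 to 87.4 with VWF, CDH5 and TEK at 0, and red cell markers to 0 to 140.5 with HBA1, HBB and ALAS2 at 0. Most of the fibroblast sum came from COL1A2, present in every library (mean 781, 338 to 1194), and COL1A1 had a mean of 175. In bulk RNA of this kind, fewer cells of a type and less RNA per cell cannot be told apart.

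The paralogues FER and FES gave the sharpest contrast in presence: FES was listed at 0 in all 9 libraries and FER in only 1. FES is best known from myeloid and endothelial cells, while FER is made in most tissues. The 250 bases before the annotated start of each are shown because promoter composition is one feature in which the pair can be compared, from RefSeq on GRCh38.p14, plus strand, 5′ to 3′, with each CG dinucleotide in capitals. The FER window is chr5:108747647-108747896 and the FES window is chr15:90884796-90885045.
FER: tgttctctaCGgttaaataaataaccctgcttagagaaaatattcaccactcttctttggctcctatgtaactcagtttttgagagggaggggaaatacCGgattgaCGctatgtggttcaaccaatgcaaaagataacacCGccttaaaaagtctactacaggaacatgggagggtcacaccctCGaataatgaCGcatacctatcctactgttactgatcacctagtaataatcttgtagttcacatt
FES: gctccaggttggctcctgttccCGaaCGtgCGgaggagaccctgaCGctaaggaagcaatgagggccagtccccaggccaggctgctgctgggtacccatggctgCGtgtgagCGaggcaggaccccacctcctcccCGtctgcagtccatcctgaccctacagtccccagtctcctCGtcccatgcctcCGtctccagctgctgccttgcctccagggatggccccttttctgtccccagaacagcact
The FER window held 6 CG dinucleotides at 40.4% G and C, and the FES window 9 at 64.4%, against a median of 11 over 35116 promoter windows of the same length. At least as many were present in 61.9% of all windows for FER and in 54.1% for FES. CG reads the same on both strands and was counted once, and no other motif was searched. The expressed gene of the pair thus had the fewer CG dinucleotides here. The other members counted varied widely, from 1 CG in the ABL2 window to 32 in that of YES1 and 33 in that of ABL1. FYN had 4 annotated starts with 0 to 45. PTK2, PTK2B and LYN were left out by their chromosome, whether or not they had an entry. SRC was not among the windows either, so the range covers none of these members. These counts describe the windows and carry no test.

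Per length of transcript, PTK2 and YES1 were by far the most abundant members. Reads were divided by the longest principal transcript in GENCODE 29, an annotation other than the authors' own, so that levels per kb are approximate. In DMSO, YES1, a ubiquitous SRC family kinase, was at 1041 ± 310 normalised reads per kb (SD, n = 3) and PTK2 at 1034 ± 222. FYN followed at 332 ± 169, ABL1 at 236 ± 97.4, LYN at 188 ± 43.7, ABL2 at 162 ± 54.5 and SRC at 104 ± 15.1. FER was at 45.4 ± 23.6 and PTK2B, the calcium-responsive relative of FAK also called PYK2, at 6.56 ± 6.52 per kb. Each library of YES1 and PTK2 (784 to 1398 per kb) was above each library of the other members (up to 516), and FER libraries (23.6 to 70.5) lay below those of SRC (86.6 to 115) and above those of PTK2B (0 to 13.04). Neighbours within the group from FYN to SRC overlapped. SRC itself, the founding member of its family, had the lowest DMSO mean of the 4 SRC family members by this length.

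The order depended in part on the length used. With the union of all annotated exons, PTK2 was at 373 per kb in DMSO, its annotated exons totalling 13742 bases against 4955 in the transcript. YES1 was then at 947, FYN at 162, ABL2 at 148, ABL1 at 144, SRC at 74.4, LYN at 69.7, FER at 40.4 and PTK2B at 3.90. LYN was then below SRC. YES1 and PTK2 had the highest DMSO means by both lengths, and PTK2B the lowest of the detected members.

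**Figure D1:**
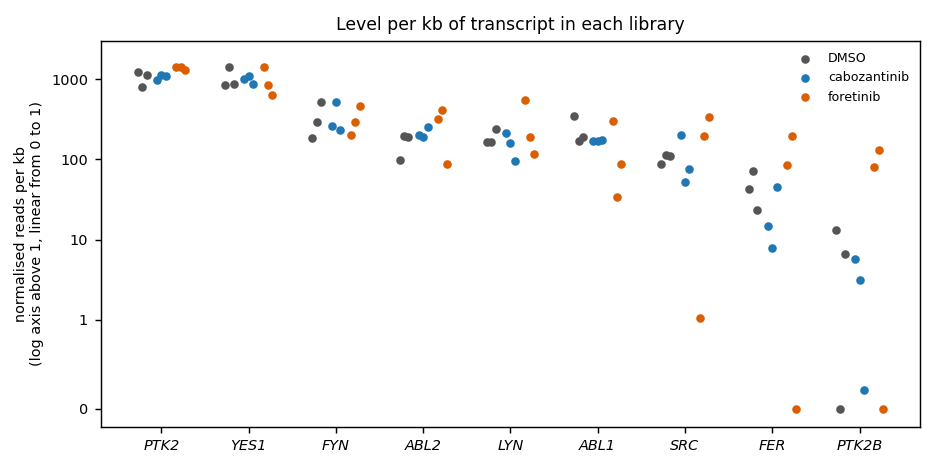
Normalised reads per kb of transcript (y axis, logarithmic above 1 and linear from 0 to 1) are plotted for the 9 members with reads, 1 dot per library, coloured by group, in order of the mean over all 9 libraries. PTK2 and YES1 stand above the rest in every group, and single foretinib libraries drop to 0 for FER and PTK2B and to 1.07 per kb for SRC.

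FER, the kinase of cell contacts and actin in the FES family, ranged widely between foretinib libraries. It was at 512, 854 and 286 normalised reads in DMSO replicates 2, 4 and 5, at 179.8, 93.7 and 552 in cabozantinib replicates 3, 4 and 5, and at 1040.1, 2371 and 0 in foretinib replicates 1, 2 and 4. The highest and the lowest FER values were thus both in foretinib, and all groups overlapped. The mean of foretinib was 2.07 times that of DMSO, yet the log2 fold change, which weights the single 0 heavily, was -1.89 (SE 2.38, 95% interval -7.01 to 3.23, limma adjusted p = 0.768). On whole reads edgeR gave 1.02 and DESeq2 1.05, and without foretinib replicate 4 the value was 1.65, so that the sign was not established. Among genes with a mean of 300 to 1000, as FER has, 15.3% were at 0 in foretinib replicate 4, 9.68% and 11.8% in foretinib replicates 1 and 2, and 0.292% to 3.13% in the other libraries, and the part of this in the FER value was not tested. Against DMSO, cabozantinib had 0.500 times the mean of FER, with a log2 fold change of -1.24 (SE 2.38, 95% interval -6.37 to 3.88). The model fitted 1 spread per gene over all 3 groups. The interval for cabozantinib therefore includes the spread of the foretinib libraries, with their single 0.

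PTK2, which encodes FAK, was the 1 member whose foretinib libraries lay apart from both other groups. It was at 5979.8, 3887 and 5509 in DMSO replicates 2, 4 and 5, at 4836, 5625 and 5345 in cabozantinib replicates 3, 4 and 5, and at 6926, 6961 and 6351 in foretinib replicates 1, 2 and 4. All 3 foretinib values exceeded all 6 others. Of all tested genes, 3.99% had every foretinib library above every DMSO library and 4.49% above every cabozantinib library, beside 1 of 9 tested members in each comparison (groups free of overlap in either direction were 11.7% and 14.2%). The foretinib mean was 1.32 times that of DMSO and 1.28 times that of cabozantinib. The log2 fold change of foretinib against DMSO was 0.42 (SE 0.22, 95% interval -0.06 to 0.90) and did not pass (limma adjusted p = 0.531). It was 0.23 without DMSO replicate 4, the lowest library, and 0.40 to 0.54 without any other DMSO or foretinib library.

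PTK2B was close to the limit of detection outside foretinib. It was at 61.6, 0 and 31.3 in DMSO, at 26.8, 14.9 and 1.02 in cabozantinib and at 379, 614 and 0 in foretinib, in the order of replicates given above. Foretinib replicates 1 and 2 were high, DMSO replicate 4 and foretinib replicate 4 were at 0, and all groups overlapped. Its log2 fold change was 2.28 for foretinib against DMSO (95% interval -4.005 to 8.57, limma adjusted p = 0.770), and leaving out 1 library moved it from 0.45 (without DMSO replicate 4) to 5.26 (without foretinib replicate 4). PTK2 made up 99.5% ± 0.510 of the reads of both FAK family genes in DMSO, 99.7% ± 0.266 in cabozantinib and 95.6% ± 4.10 in foretinib. FAK family reads were thus almost all from PTK2 in each library, at 91.9% or more.

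**Figure D2:**
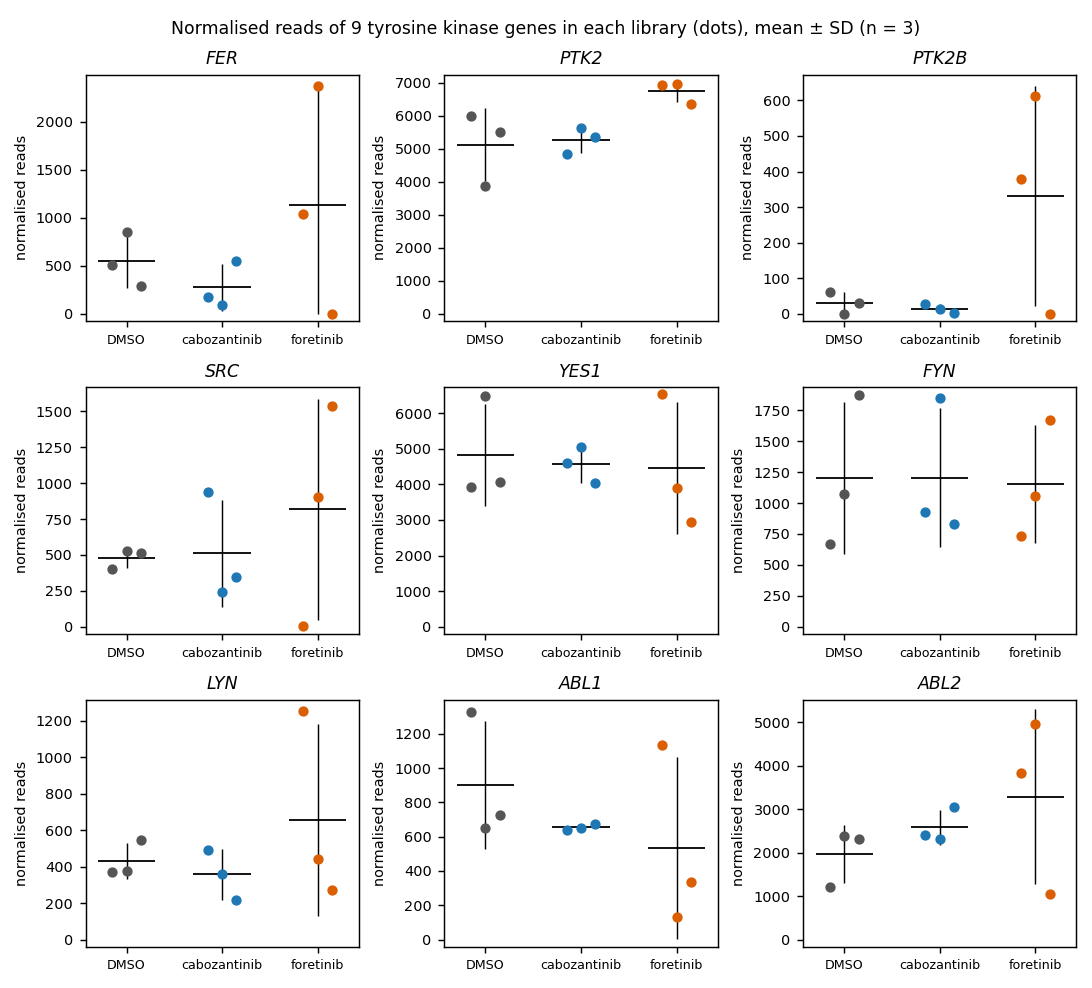
Normalised reads (y axis) of the 9 members with reads are plotted by group, 1 dot per library in order of its number, with a line at the mean and a vertical bar of ± SD (n = 3) that is clipped at 0 for FER in foretinib. PTK2 in foretinib (6351 to 6961) lies above all other libraries, whereas in every other panel the groups overlap.

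YES1 supplied 58.2% or more of SRC family reads in every library but foretinib replicate 4, where it supplied 45.8%. It was at 3920.2, 6485 and 4076 in DMSO, at 4598, 5058 and 4026 in cabozantinib and at 6530.2, 3905 and 2940.1 in foretinib. The groups overlapped fully, 1 library of DMSO and 1 of foretinib being high. The log2 fold change was -0.16 for foretinib against DMSO (95% interval -0.83 to 0.52) and -0.05 for cabozantinib against DMSO (95% interval -0.72 to 0.63). FYN, a SRC family kinase prominent in neurons and T cells, was at 668, 1072 and 1872 in DMSO, at 929.7, 1854 and 835 in cabozantinib and at 733, 1058 and 1669.8 in foretinib. The ranges of FYN overlapped between the groups, with means of 1204 ± 613, 1206 ± 563 and 1154 ± 475.

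SRC was even in DMSO and uneven under both inhibitors. It was at 401, 530.4 and 512 in DMSO, at 939, 243 and 349 in cabozantinib and at 4.93, 906 and 1539 in foretinib. Foretinib replicate 1 held almost none and the other 2 foretinib libraries more than any DMSO library, so that the mean ratio to DMSO was 1.70 while the log2 fold change was -1.24 (SE 1.77, 95% interval -5.05 to 2.57, limma adjusted p = 0.794). Without foretinib replicate 1 that value was 1.30, and the sign was not established. LYN, a SRC family kinase of B cells and myeloid cells that epithelial tumours also express, was at 373, 374 and 547 in DMSO, at 493, 362 and 217 in cabozantinib and at 1256, 441 and 271 in foretinib. Its groups overlapped, and foretinib replicate 1, where SRC was lowest, held the highest LYN value. Summed over the 4 genes, SRC family reads were 6943 ± 1551 in DMSO, 6634 ± 1082 in cabozantinib and 7085 ± 1249 in foretinib, of which YES1 made up 69.3% ± 9.81, 69.2% ± 4.38 and 61.4% ± 15.4.

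ABL1, the founding ABL kinase, was nearly constant under cabozantinib and scattered under foretinib. It was at 1329, 648 and 728 in DMSO, at 642, 652 and 673 in cabozantinib and at 1136, 131 and 336 in foretinib. DMSO replicate 2 and foretinib replicate 1 were high, and the groups overlapped. The log2 fold change of foretinib against DMSO was -1.21 (SE 0.90, 95% interval -3.14 to 0.71, limma adjusted p = 0.618), beside a median of -1.06 over the genes with a mean of 300 to 1000. It was -0.47 without foretinib replicate 2 and -2.03 without foretinib replicate 1. ABL2, also called ARG, was at 1202, 2389.8 and 2303 in DMSO, at 2403, 2311 and 3042 in cabozantinib and at 3823, 4967 and 1054 in foretinib. Foretinib held both the highest and the lowest library, and the ABL2 log2 fold changes were 0.53 for foretinib (95% interval -0.57 to 1.64) and 0.45 for cabozantinib (95% interval -0.65 to 1.56) against DMSO. The foretinib value was 0.10 without foretinib replicate 2, 0.21 without DMSO replicate 2, 0.29 without foretinib replicate 1 and 1.21 without foretinib replicate 4. As a share of the reads of both ABL genes, ABL2 took 47.5% in DMSO replicate 2, 97.4% in foretinib replicate 2 and 75.8% to 81.9% in the other 7 libraries. DMSO replicate 2 was also the DMSO library with the most genes at 0, and whether the 2 are related was not tested.

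Foretinib was compared with DMSO to ask whether any of these transcripts responds within 4 h. None of the 9 tested members passed an adjusted p of 0.05, where limma-trend called 0% of all 12642 genes (0 genes, with 1146 at an unadjusted p under 0.05). edgeR on the recovered reads called 0 genes and DESeq2 656, none of them a member. At an unadjusted p under 0.05 the members also numbered 0, against 9.07% of all tested genes (2.17% higher and 6.9% lower). The fold change was above 0 for PTK2, PTK2B, LYN and ABL2 and below 0 for FER, SRC, YES1, FYN and ABL1, with a median of -0.02 against -0.34 over all tested genes. By level, the median over tested genes ran from -2.06 at a mean of 100 to 300 to -0.00061 at 3000 to 10000. It was -0.08 at 1000 to 3000, the level of FYN, whose value is the members' median. The intervals were narrow enough to bound the change for the 2 most abundant members only, from -0.06 to 0.90 for PTK2 and from -0.83 to 0.52 for YES1 on the log2 scale, whereas those of FER, PTK2B and SRC spanned more than 7 log2 units.

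Cabozantinib was compared with the same DMSO libraries, which both comparisons share. None of the 9 members passed (0% of all genes called by limma-trend, 166 genes at an unadjusted p under 0.05, 0 by edgeR and 49 by DESeq2, none of them a member). No member had an unadjusted p under 0.05, against 1.31% of all tested genes (0.878% higher and 0.435% lower), and no member's groups were free of overlap, against 9.9% of all tested genes. The share of 1.31% rests on a spread that includes the foretinib libraries. With only the 6 libraries compared, 516 genes had an unadjusted p under 0.05 and 0 were called. The low share is therefore no measure of how little cabozantinib changed. PTK2 differed by 0.06 (95% interval -0.42 to 0.54), FYN by 0.03 (95% interval -1.24 to 1.30), LYN by -0.33 (95% interval -2.49 to 1.84) and ABL1 by -0.38 (95% interval -2.31 to 1.54). The median of the 9 members was -0.15, against 0.04 over all tested genes.

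Foretinib and cabozantinib were compared directly at the same dose and time, as the 1 pair of compounds in the series. None of the 9 members differed past the threshold (0% of all genes called by limma-trend, 0 genes by edgeR and 621 by DESeq2, none of them a member). Members at an unadjusted p under 0.05 numbered 0, against 9.9% of all tested genes (1252 genes, 1.83% higher and 8.08% lower). PTK2 was higher in all foretinib libraries by a log2 fold change of 0.36 (SE 0.22, 95% interval -0.13 to 0.84, limma adjusted p = 0.555). For YES1 the difference was -0.11 (95% interval -0.78 to 0.57), for ABL2 0.08 (95% interval -1.02 to 1.19), for FYN -0.05 (95% interval -1.32 to 1.22) and for ABL1 -0.83 (95% interval -2.76 to 1.10). LYN differed by 0.65 (95% interval -1.52 to 2.82), SRC by -1.09 (95% interval -4.90 to 2.72), FER by -0.65 (95% interval -5.77 to 4.48) and PTK2B by 2.67 (95% interval -3.61 to 8.96). These intervals do not show that the compounds act alike on any member, and for FER the sign turned with the pseudocount, being 0.39 with 10 and 0.91 with 50 added in place of 1.

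**Figure D3:**
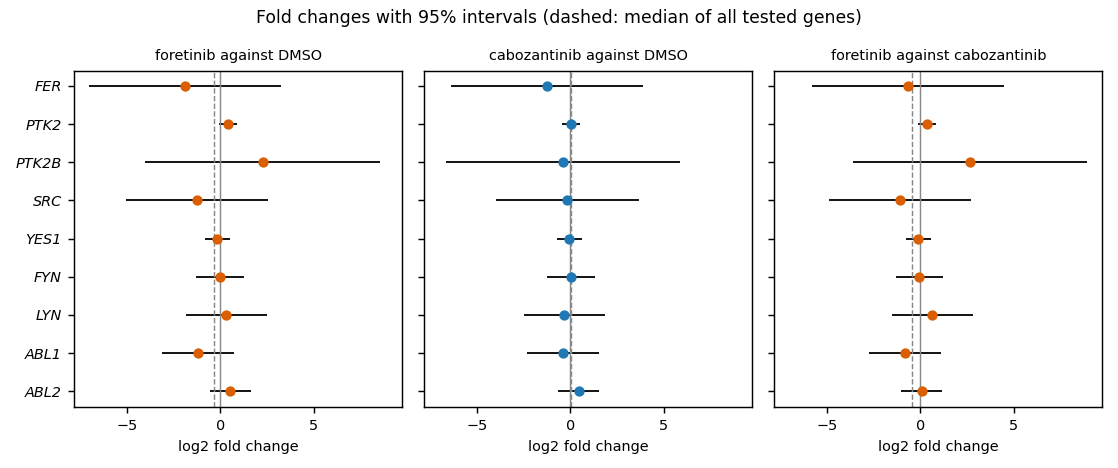
Log2 fold changes (x axis) of the 9 tested members are plotted as dots with 95% intervals for the 3 comparisons, with a solid line at 0 and a dashed line at the median of all tested genes (-0.34, 0.04 and -0.44). Every interval includes 0, and those of PTK2 and YES1 are the narrowest.

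The spread between replicates, fitted over all 3 groups together, set the intervals of each comparison. The coefficient of variation (SD over mean, CV) was higher in foretinib than in DMSO for 6 of the 9 members and for 76.2% of 11881 tested genes with reads in all groups. PTK2 went the other way, with a CV of 5.08% in foretinib against 21.4% in DMSO and 7.58% in cabozantinib. So did PTK2B (93.6% in foretinib, 99.4% in DMSO) and FYN (41.2% in foretinib, 50.9% in DMSO). The median CV of the 1638 genes with a mean of 3000 to 10000 was 30.7% in foretinib, and 1.65% of them had a CV as low as that of PTK2. ABL1 had a CV of 2.45% in cabozantinib, where genes of its level had a median of 41.1%, and of 99.5% in foretinib, where that median was 90.2%. SRC had a CV of 14.6% in DMSO, 73.5% in cabozantinib and 94.4% in foretinib. Beside it, FER reached 104.5% and LYN 80.3% in foretinib, which bracket the 90.2% of genes of their level. With 3 libraries a group a CV is itself imprecise, and no test was made of these differences.

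**Figure D4:**
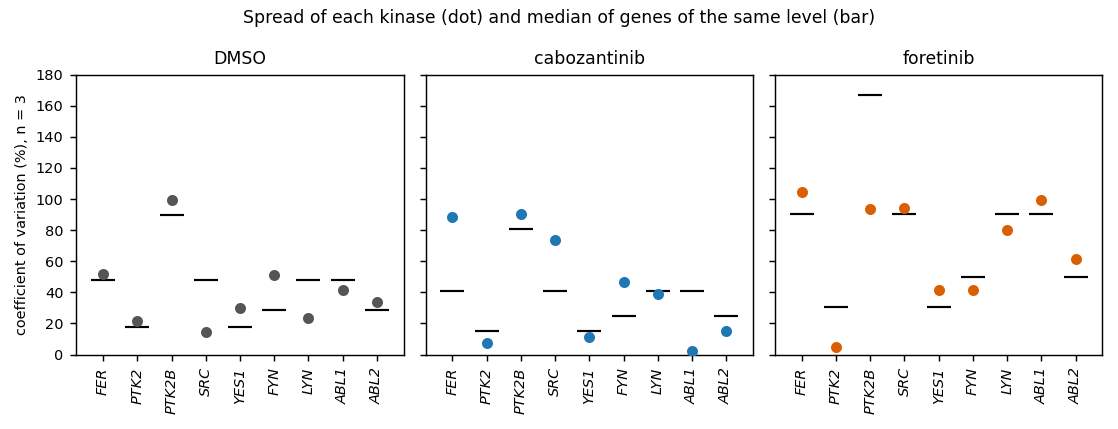
The coefficient of variation between the 3 libraries of a group (y axis, percent) is plotted for each of 9 members as a dot, with a bar at the median of all tested genes of the same level. The bars are highest in foretinib, and PTK2 lies far below its bar there (5.08% against 30.7%).

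Summed over all 10 genes, kinase reads were 14446, 16239 and 15865 in DMSO replicates 2, 4 and 5, 15046, 16212 and 15039.8 in cabozantinib replicates 3, 4 and 5, and 21829, 21353 and 14160.1 in foretinib replicates 1, 2 and 4. Foretinib replicates 1 and 2 stood above all other libraries and foretinib replicate 4 below them. ABL2, FER and PTK2B were all high in foretinib replicates 1 and 2 and at their lowest or at 0 in replicate 4. Over the 9 libraries, which share library size scaling and group, Pearson's correlation of log2 values was highest for FER with ABL2 (0.73) and lowest for SRC with LYN (-0.75) among the 36 pairs of tested members. Among the 5488 other genes with a mean of at least 1000, TMEM54 (0.98), PWP2 (0.97) and COX10 (0.97) followed FER most closely over the 9 libraries. For PTK2 these were SEPW1 (0.96), BARD1 (0.93) and PRPF8 (0.90). With 9 points and so many genes such values describe these libraries only. On the log2 scale, FER at 0 in foretinib replicate 4 weighs heavily in the FER correlations. SRC at 4.93 in foretinib replicate 1 does so in that of SRC with LYN.

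A list of 20 other non-receptor tyrosine kinases was examined, with CSK and MATK placed among the regulators below. Of the 20, 8 were listed at 0 in all libraries, among them FGR, BLK, BTK and ZAP70, which are kinases of blood cells. LCK, SRMS and PTK6 had reads but were under the filter, and 9 were tested, of which 0 passed in any comparison. The cytokine receptor kinase JAK1 had 2005 ± 847 reads with DMSO, 2099.7 ± 959 with cabozantinib and 884 ± 342 with foretinib (-1.17 for foretinib against DMSO, 95% interval -2.31 to -0.02, limma adjusted p = 0.531). SYK, a kinase of immune receptor signalling, was at 929.7 ± 253 in DMSO and 1764 ± 593 in foretinib (0.90, 95% interval -0.20 to 2.01). TEC was listed at 0 in all DMSO libraries and was at 176, 68.8 and 199.5 in cabozantinib, but at 0, 865 and 0 in foretinib. The median over the 9 was -0.44 (foretinib) and -0.17 (cabozantinib) relative to DMSO, and -0.47 between the compounds (foretinib minus cabozantinib, as in each list below).

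Among 18 regulators of SRC family kinases and focal adhesions, 16 were tested and 0 passed. PTPN12, a phosphatase that acts on p130Cas, had the smallest p of the list in both foretinib comparisons. Its libraries were at 1859.9, 1133 and 1787 in DMSO, 1914, 1889 and 2402 in cabozantinib and 576, 726 and 108 in foretinib. All foretinib libraries were below all others, as 7.69% of all tested genes were against DMSO and 9.7% against cabozantinib. The log2 fold change was -2.12 against DMSO (SE 0.69, 95% interval -3.61 to -0.64, limma adjusted p = 0.406) and -2.53 against cabozantinib (95% interval -4.01 to -1.04, limma adjusted p = 0.377), where genes with a mean of 1000 to 3000 had medians of -0.08 and -0.08. The list's medians were -0.46 (foretinib) and -0.06 (cabozantinib) relative to DMSO, and -0.79 between the compounds. CSK, the kinase that switches SRC family members off, had 1129 ± 605 reads with DMSO, 1515 ± 255 with cabozantinib and 1504 ± 1026 with foretinib.

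Of 35 focal adhesion adaptors and integrins, 31 were tested and 0 passed. ITGB1, the β1 integrin through which many cells attach to matrix, was at 2356, 2931 and 3154 in DMSO and at 4419, 5096 and 4434 in cabozantinib. These groups did not overlap, which 5.18% of all tested genes showed in that direction, and the log2 fold change was 0.73 (SE 0.27, 95% interval 0.15 to 1.32, limma adjusted p = 0.9998). In foretinib ITGB1 ranged from 2748 to 4259. FERMT2, the integrin activator kindlin-2, was at 2886 ± 813 in DMSO and 1509.7 ± 689 in foretinib without overlap (-0.99, 95% interval -1.91 to -0.07, limma adjusted p = 0.528), a separation that 7.69% of all tested genes showed in that direction. The adaptors of FAK itself, paxillin (PXN) and p130Cas (BCAR1), were at 2639 ± 42.4 and 707 ± 302 in DMSO, and at 1749 ± 937 and 1573 ± 718 in foretinib. The list's medians were -0.46 (foretinib) and 0.04 (cabozantinib) relative to DMSO, and -0.49 between the compounds.

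Of 28 substrates of these kinases among actin, cadherin and signalling proteins, 26 were tested and 0 passed. VASP, which promotes actin filament growth, was at 734, 1294 and 490.4 in DMSO, at 395, 296 and 177 in cabozantinib and at 28.0, 0 and 12.5 in foretinib. The 3 groups of VASP did not overlap. Of all tested genes, 7.69% had every foretinib library below every DMSO library, 9.7% every foretinib library below every cabozantinib library and 4.71% every cabozantinib library below every DMSO library. For VASP the log2 fold change of foretinib against DMSO was -6.73 (SE 2.00, 95% interval -11.04 to -2.42, limma adjusted p = 0.370). SORBS2, an adaptor bound by ABL kinases, had 3025 ± 1242 reads with DMSO, 2387 ± 556 with cabozantinib and 4920.4 ± 1104 with foretinib (1.05 for foretinib against cabozantinib, 95% interval 0.31 to 1.78, limma adjusted p = 0.389). Cortactin (CTTN), a shared substrate of FER, SRC and ABL kinases, was at 7777 ± 772, 6689 ± 164 and 6254 ± 672 in DMSO, cabozantinib and foretinib. The list's medians were -0.27 (foretinib) and 0.15 (cabozantinib) relative to DMSO, and -0.36 between the compounds. Genes with all libraries of a group at 0 were 0 to 2 in each list and comparison, and setting such a group to a floor of 3 reads per library left every list's median as given except that of the focal adhesion list for foretinib against DMSO, which became -0.45.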

How the data were processed

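RNA from 9 NCI-H1155 libraries was extracted on columns with DNase digestion and made into libraries with the NuGEN Encore Complete kit, per the labels' protocols. The authors deposited 1 signal value per gene and library, a read count divided by a size factor. Build hs37d5, DESeq2, HTSeq, Cufflinks 2.2.1 and TopHat2 2.0.13 are listed, per the submitters' processing notes. Annotation and strand setting were not given in the sources used here. In GENCODE 29, YES1 overlaps an antisense gene, whose reads could not be told apart without strand. In each deposited column 100% of the signal values were whole multiples of 1 step (tolerance 1e-06 of a read), so whole reads were recovered. Chi-square per degree of freedom between replicates was 120.6 or more, so none were copies.

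Values were tested as log2(value + 1) for genes with 10 or more in at least 3 libraries, with limma 3.58.1 (limma-trend, R 4.3.3) on all 9 libraries without covariates, and Benjamini-Hochberg adjusted p over 12642 genes. The 19 alternatives were other pseudocounts and filters, quantile and TMM scaling, edgeR 4.0.16 and DESeq2 1.42.0 on whole reads, a 6-library model, a replicate block and leaving out each library. Of each gene list the 3 smallest p per comparison, and for FER and PTK2 the 3 best correlated genes, could be named; PXN, BCAR1 and CTTN were added for their roles after values were seen, and some genes the rule allowed are not described. The members and lists were chosen with earlier results of these data known. Tests were tried on simulated data first. Coordinates refer to GRCh38.p14, not the authors' build.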

Additional observations from a re-analysis of the deposited data

How the results depend on the processing

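No member passed an adjusted p of 0.05 in any of the 507 values computed under alternatives (lowest 0.186), and 456 of these kept the sign given above. Some of the 456 could not have changed, as certain alternatives return the main fold change exactly. These are the other filters, the model of only the libraries compared, and leaving out a library of the group not compared. The count of 456 therefore overstates how stable the signs were. Counts of called genes were 0 under every setting except 1 for foretinib against DMSO with quantile normalisation (EGR1) and, with DESeq2, 656 and 49 for foretinib and cabozantinib relative to DMSO and 621 between the compounds. Signs changed as follows on the log2 scale, none of them past the threshold, and the cause was not tested. For foretinib against DMSO, edgeR and DESeq2 on whole reads gave 1.02 and 1.05 for FER and 0.73 and 0.76 for SRC. For cabozantinib against DMSO they gave 0.093 and 0.087 for SRC. For foretinib against cabozantinib, FER was 0.39 and 0.91 with pseudocounts of 10 and 50, 1.91 with quantile normalisation, 2.01 with edgeR and 2.05 with DESeq2. SRC was 0.18 with quantile normalisation, 0.64 with edgeR and 0.68 with DESeq2, and ABL2 was -0.00067 with quantile normalisation.

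The title numbers only partly recur between groups, and same-numbered libraries did not deviate together (correlations of -0.0022 to 0.029), so they were not treated as pairs. Number 1 occurs only in foretinib and number 3 only in cabozantinib. A replicate block fits those libraries exactly, so foretinib replicate 1 and cabozantinib replicate 3 add nothing to its fold changes. With the replicate block, the values of other sign were 1.44 for SRC, 0.39 for FYN and -0.31 for LYN in foretinib against DMSO. In cabozantinib against DMSO they were 0.34 for FER, 0.70 for PTK2B and -0.12 for FYN, and in foretinib against cabozantinib -0.23 for PTK2B, 2.35 for SRC, 0.51 for FYN and -0.21 for ABL2. The block left all counts of called genes at 0.

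Leaving out each library in turn gave ranges that included both signs for foretinib against DMSO in FER (-3.96 to 1.65), SRC (-2.71 to 1.30), YES1 (-0.47 to 0.10), FYN (-0.38 to 0.37) and LYN (-0.29 to 0.81). For cabozantinib against DMSO this held for PTK2 (-0.13 to 0.18), PTK2B (-2.22 to 0.76), SRC (-0.71 to 0.26), YES1 (-0.18 to 0.18) and FYN (-0.33 to 0.42). For foretinib against cabozantinib it held for FER (-2.71 to 2.89), SRC (-2.56 to 1.45), YES1 (-0.42 to 0.15), FYN (-0.36 to 0.31) and ABL2 (-0.35 to 0.76). PTK2 in both foretinib comparisons was above 0 under all 19 alternatives, at 0.23 to 0.54 against DMSO and 0.20 to 0.41 against cabozantinib. Most of these alternatives could not have turned the sign of PTK2. Some return the main value, and every foretinib library exceeded all others, which fixes the sign under other pseudocounts and when a library is left out. Only quantile and TMM scaling, edgeR, DESeq2 and the replicate block were free of this limit. No tool that removes copies made by amplification is among those listed. If such copies were counted as separate reads, depth would overstate the precision for the low members FER, PTK2B, SRC and LYN. This was not tested.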
